A study of Mus musculus with 16 samples.

Results

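The MYC, MAX and MXD network is a group of transcription factors that compete for the same dimerisation partners. Described here are 9 of its genes in mouse embryonic fibroblasts (MEF): Myc, Mycn, Max, Mlx, Mxd1, Mxi1, Mxd3, Mxd4 and Mnt. The genes were chosen by membership of the network, with measured values of these same arrays in view, above all the very large difference of Mycn between the genotypes. Mycn values are therefore given as a description without a test, and the tests of the other genes are not independent support for the choice. A probe set is a group of short oligonucleotides whose readings are combined into 1 signal. All 21 probe sets that name one of these 9 genes alone were taken, of 34945 single-gene probe sets on the array. They represent 9 of 18193 genes.

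MYC and MYCN dimerise with MAX, bind the E-box and activate genes of growth, ribosome production and metabolism. MXD1, MXI1, MXD3, MXD4 and MNT also dimerise with MAX, and some of them with MLX, but recruit SIN3 and histone deacetylases, so that they oppose MYC at shared sites. MYC proteins are short-lived and are destroyed by the proteasome. The arrays measured RNA only, and no protein level follows from them.

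The study compared wild-type cells (CHOP+/+) with cells lacking CHOP (CHOP-/-), each left untreated or exposed for 8 hours to 1 µM of MG132, which blocks the proteasome. CHOP is the product of Ddit3, a transcription factor induced by cellular stress. There were 4 plates, and so 4 arrays, for each of the 4 combinations of genotype and treatment. No label ties a plate to an embryo or a cell isolation, or says that the 2 genotypes were littermates, so a p-value here reflects plate-to-plate spread. For the untreated plates the labels disagree, giving either no treatment or the solvent DMSO.

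The values are MAS5 signals, which carry no unit of concentration, and no probe set's level can be set against another's. Array medians lay between 90.11 and 113.4, and arrays within a group correlated at 0.9789 to 0.9852 across probe sets. Ddit3 signal lay at 886.9 to 1127 in untreated and 6891 to 8181 in treated wild-type cells, against 343.1 to 393.2 and 342.2 to 429.8 in the knockout cells, where the log2 change of 0.10 ± 0.09 did not pass (adjusted p = 0.348). After median centring or quantile normalisation of the arrays that change was 0.22 or 0.25 and passed, against 3.01 or 2.97 in wild-type cells. No source used here says whether that probe set lies within the deletion. Of 12 fibroblast markers, 10 or 11 lay above the array median on every array of each group, but not the same ones: Thy1 averaged 227.5 in untreated wild-type and 2727 in untreated knockout cells, Pdgfra 2351 and 118.3, and Dcn 38.48 and 1075. The summed signal of the 12 markers spanned 147200 to 174500, 131300 to 144700, 147000 to 162800 and 109500 to 115600 in untreated and treated wild-type and untreated and treated knockout cells. Of 5 markers each for leukocytes, epithelium and endothelium, Ptprc (group means 20.46 to 29.69), Cdh1 (38.22 to 67.03) and Pecam1 (8.82 to 14.24) were low in all groups. Others were above the array median on every array of some groups, namely Cd68 and Csf1r (leukocytes), Epcam (epithelium) and, in treated knockout cells, Kdr (endothelium). The summed lists spanned 353.2 to 555.2 untreated and 427.2 to 699.2 with MG132 for leukocytes, 252.2 to 434.0 and 401.9 to 632.4 for epithelium, and 96.01 to 269.5 and 154.5 to 427.6 for endothelium. With MG132, Cd68 (0.63) rose in wild-type cells, Csf1r (0.47 and 0.52) and Krt8 (0.90 and 0.58) rose in both genotypes, and Kdr (1.86) rose in knockout cells. The 6 neural and pluripotent markers summed to 1922 to 2184 in untreated wild-type and 378.1 to 465.8 in untreated knockout cells, and to 2318 to 2522 and 1282 to 1544 with MG132; Sox2 averaged 1775 and 184.3 untreated. Fibroblast and neural markers thus moved with genotype, and also with treatment. With MG132, 3 of 11 tested fibroblast markers rose and 6 fell in wild-type cells, against 26.7% and 36.7% of all genes tested. In knockout cells 1 rose and 7 fell, against 25.4% and 36.4%. Tubb3 rose in both genotypes (1.65 and 3.31), Elavl3 rose in wild-type cells (1.09) and Sox2 fell in knockout cells (-0.62). Some markers of other cells moved with treatment as well, and the part of all these markers in the results was not tested. A pair of sex-linked transcripts, picked after their values were seen, also split the genotypes. Eif2s3y, from the Y chromosome, averaged 4714 and 7092 in untreated and treated wild-type cells against 11.11 and 18.38 in the knockout cells, and Xist averaged 297.1 and 382.2 against 10340 and 9777. Loss of CHOP and the origin of the cells cannot be told apart in any genotype comparison below.

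Sequence from the start of the member genes shows which of them carry the E-box that the network itself binds. The windows run from 250 bases before to 50 bases after the start and come from RefSeq, assembly GRCm38.p6. They were at hand for 8 of the 9 genes, the exception being Myc. The E-box CACGTG, which reads the same on both strands, was present in the windows of 4 of the 8 genes, against 8.09% of all 27025 genes with a window. The 4 stretches are shown with the E-box in capitals. The Mxd4 stretch lies at chr5:34187904-34187949 on the minus strand, the Mnt stretch at chr11:74830781-74830826 on the plus strand, the Mlx stretch at chr11:101087230-101087275 on the plus strand and the Max stretch at chr12:76962226-76962271 on the minus strand. Their E-boxes begin 219, 123, 40 and 3 bases before the start, respectively.
Mxd4: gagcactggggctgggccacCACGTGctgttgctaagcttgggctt
Mnt: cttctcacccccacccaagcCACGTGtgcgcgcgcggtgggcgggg
Mlx: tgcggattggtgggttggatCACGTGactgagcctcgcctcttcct
Max: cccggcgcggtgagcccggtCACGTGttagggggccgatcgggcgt

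The Mycn window held no CACGTG. It carried the E2F motif TTTGGCGC at 2 positions, beginning 183 and 168 bases before the start, on the strand of the gene. That motif, searched on both strands, occurred in 0.585% of all genes with a window and in no other of the 8 members. The stretch lies at chr12:12941977-12942039 on the minus strand, with both motifs in capitals.
Mycn: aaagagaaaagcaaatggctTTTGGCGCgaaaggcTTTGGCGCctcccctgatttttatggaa
The composite motif TGATGNAA, to which ATF4 and C/EBP family proteins including CHOP can bind, was found in 0 of the 8 member windows on either strand and in 4.51% of all genes with a window. These matches describe the letters in the windows, and binding was not measured.

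The MYC paralogs come first. Mycn, which drives growth of embryonic progenitors and of neuroblastoma, gave a high signal on all 8 wild-type arrays with 1 of its 3 probe sets. Probe set 1425923_at read 27710, 31360, 36980 and 31720 in untreated wild-type cells, and 32380, 32630, 36520 and 31890 with MG132. In knockout cells it read 127.2, 182.6, 210.9 and 110.4 untreated, and 210.3, 182.0, 101.7 and 81.44 with MG132. Each wild-type array thus lay far above each knockout array, while treated and untreated arrays of a genotype overlapped.

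The ratio of the wild-type to the knockout mean of 1425923_at was 202.5 without and 231.9 with MG132, and the ratio of the lowest wild-type to the highest knockout array 131.4 and 151.6. The knockout signals lay about at the array medians, with 1 treated array below its own, and without detection calls they are not shown to exceed background. These ratios compare signals of this probe set alone and do not fix the fold difference in Mycn RNA, which could be larger or smaller. Among the 21651 probe sets tested across the array, this fall was the second-largest change in untreated cells, where Coch fell by 7.63 and Mycn fell by 7.56 on the log2 scale, and the largest with MG132, where Mycn fell by 7.79. The order belongs to the choice of the gene and supports nothing. MG132 left 1425923_at at 31940 ± 3815 and 33360 ± 2134 (SD, n = 4) in wild-type cells.

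The other 2 Mycn probe sets did not show this difference. Probe set 1417155_at read 16.17, 9.269, 42.76 and 13.58 in untreated and 13.84, 10.07, 23.47 and 55.57 in treated wild-type cells. It read 97.24, 117.5, 102.6 and 155.3 in untreated and 16.16, 40.03, 17.59 and 18.29 in treated knockout cells. Its only raised group was untreated knockout, so its order of genotypes was the opposite of that of 1425923_at there, with a wild-type over knockout ratio of 0.173. Probe set 1425922_a_at stayed between 4.894 and 43.11 on all 16 arrays, with ratios of 1.139 untreated and 0.5715 with MG132.

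Both weak probe sets lay mostly under the array median, on 13 of 16 arrays for 1417155_at and on all 16 for 1425922_a_at, and were not tested. In the probe table, 1425922_a_at and 1425923_at were designed from the same sequence entry and 1417155_at from another. Where each probe set lies along the Mycn transcript was not given in the sources used here, and why they disagree was not tested. The statement that wild-type cells carry more Mycn RNA rests on 1425923_at alone. Averaging the probe sets on the log2 scale reduced the falls to 1.91 and 2.44.

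**Figure D1:**
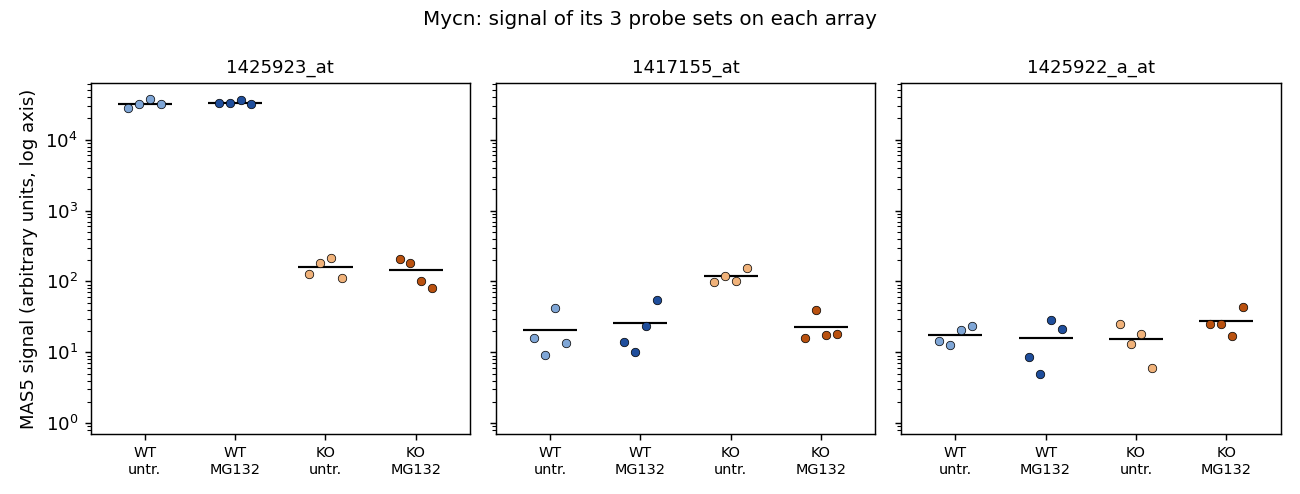
Signal of the 3 Mycn probe sets on each array, on a shared log axis in arbitrary MAS5 units; points are arrays, bars are group means of 4 arrays, WT is wild-type and KO is CHOP knockout. Probe set 1425923_at separates the genotypes by at least 131.4-fold between any 2 arrays of the same treatment, whereas 1417155_at is raised only in untreated knockout cells and 1425922_a_at reaches no more than 43.11.

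The nearest tested genes to Mycn in the chromosome order of RefSeq, Ddx1 and Nbas, did not share the difference. Both lie on the same side of Mycn, 9 and 10 genes away. On the other side the nearest genes with a probe set did not pass the filter on low signals. Ddx1, an RNA helicase that is often co-amplified with MYCN in tumours, averaged 12030 ± 280.6 in untreated wild-type and 12090 ± 179.6 in untreated knockout cells, a log2 difference of 0.01 ± 0.04 (SE; adjusted p = 0.903). With MG132 its means were 12420 and 10990, a difference of -0.18 ± 0.04 (adjusted p = 0.000687). Nbas, the next tested gene, differed by -0.09 ± 0.09 untreated (adjusted p = 0.453) and by 0.35 ± 0.09 with MG132 (adjusted p = 0.00374).

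The profiles most like that of Mycn 1425923_at over the 16 arrays belonged to Rpgrip1 (Pearson r = 0.997), Coch (0.9947), Maf (0.9944), Lhx9 (0.9944) and Rps4l (0.9939). These correlations are set almost entirely by the 2 genotypes and describe them. Rpgrip1 averaged 12570 and 11900 in untreated and treated wild-type cells, against 911.4 and 815.5 in the knockout, and Maf 1984 and 2038 against 114.4 and 84.02.

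Myc itself, the founding member of the family, was nearly level across all 4 groups. Its single probe set read 4438, 5966, 6264 and 5657 in untreated wild-type cells and 5301, 5309, 5479 and 5328 with MG132. Knockout cells gave 5420, 5657, 5697 and 5904 untreated and 4993, 6050, 5995 and 6157 with MG132. All 4 groups overlapped. The log2 response was -0.05 ± 0.08 in wild-type cells (adjusted p = 0.65) and 0.03 ± 0.08 in knockout cells (adjusted p = 0.797), and without untreated wild-type replicate 1 the former reached -0.15 (adjusted p = 0.0402). Each adjusted p comes from limma's moderated test over all 21651 probe sets with Benjamini-Hochberg adjustment. Knockout exceeded wild-type by 0.03 ± 0.08 untreated (adjusted p = 0.765) and 0.11 ± 0.08 with MG132 (adjusted p = 0.28). The profiles most like that of Myc were Dpysl2 (r = 0.8025), Nacc1 (0.8014) and Nol9 (0.8002), all weaker likenesses than those of Mycn.

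Across the network, 17 of the 21 probe sets passed the filter on low signals, and they covered all 9 genes. The counts leave out Mycn, whose genotype difference was known when the genes were chosen, and so cover 16 probe sets. In the wild-type response to MG132, 2 were higher and 5 lower, against 27.3% and 31.5% of all probe sets tested. In the knockout response 1 was higher and 4 lower, against 24.1% and 32.3%. The responses of the genotypes differed (the interaction) for 2 probe sets in the direction of a higher knockout response and 1 in that of a lower one, against 11.2% and 13.0%. Knockout exceeded wild-type in 4 untreated probe sets and was below it in 5, against 25.7% and 24.1%; with MG132 these were 3 and 3, against 26.6% and 27.9%. Of these 10 shares, 8 lay below the background and 2 above it, the higher interactions (12.5% against 11.2%) and the lower untreated knockout signals (31.2% against 24.1%). The members were chosen with these results known, so neither excess is evidence about them. Passing means an adjusted p below 0.05, and "rose", "fell", "higher" and "lower" are used in that sense.

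**Figure D2:**
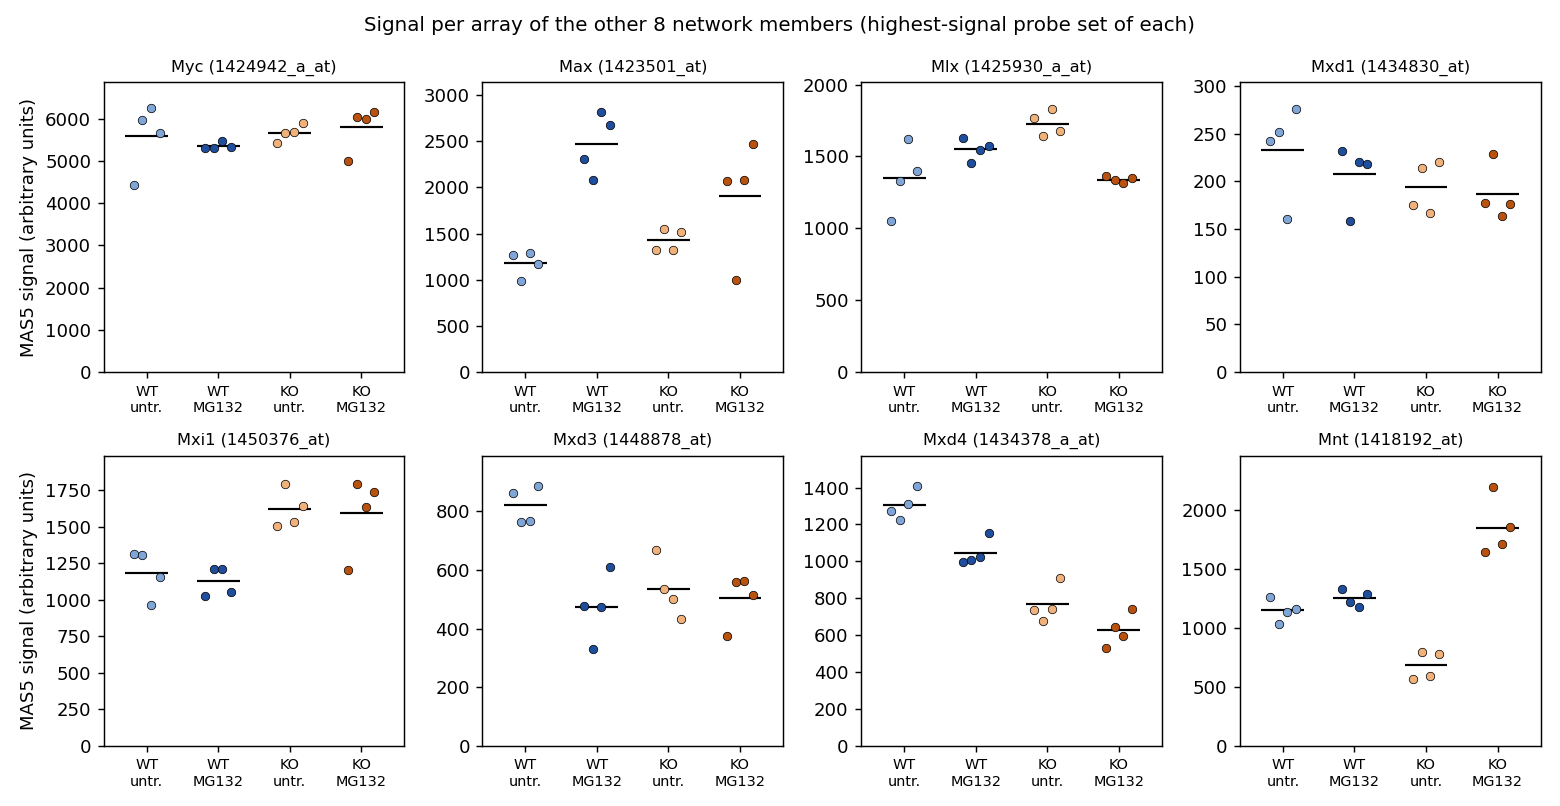
MAS5 signal (arbitrary units, axes from 0) on each array for the highest-signal probe set of the 8 members other than Mycn; points are arrays and bars are means of 4 arrays. Mnt is lowest in untreated and highest in treated knockout cells, Max is higher on all 4 treated than on all 4 untreated wild-type arrays, and Mxd4 steps down from wild-type to knockout in both treatments.

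The shared partners are Max and Mlx, and the rise of Max in wild-type cells was the larger change. Max, the obligate partner of MYC, read 1263, 986.6, 1289 and 1168 in untreated wild-type cells and 2305, 2083, 2815 and 2672 with MG132. In knockout cells it read 1324, 1550, 1320 and 1521 untreated and 2068, 1001, 2076 and 2473 with MG132. The treated wild-type arrays all lay above the untreated ones, whereas in knockout cells replicate 2 of the treated group lay below every untreated array.

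Max rose 2.08-fold in wild-type cells, by 1.06 ± 0.19 on the log2 scale (adjusted p = 6.54e-05). The knockout change of 0.34 ± 0.19 did not pass (adjusted p = 0.13), nor did the difference between the responses, -0.72 ± 0.26 (adjusted p = 0.0547). Without treated knockout replicate 2 the knockout change was 0.62 (adjusted p = 0.000109), so that array decides whether a rise in knockout cells is called on the deposited scale. With median centring of the arrays it was 0.46 (adjusted p = 0.044). The genotype differences of Max were 0.28 ± 0.19 untreated (adjusted p = 0.229) and -0.44 ± 0.19 with MG132 (adjusted p = 0.0546). The treated difference was called in 8 of 29 other settings, some of which kept every array. It also moved with single arrays, to -0.16 without treated knockout replicate 2 (adjusted p = 0.254) and -0.59 without treated knockout replicate 4 (adjusted p = 0.0128). It was also called without treated wild-type replicate 2 (-0.51) and without treated knockout replicate 1 or 3 (-0.50 each).

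Mlx, the partner of the glucose-sensing factors MondoA and ChREBP as well as of some MXD proteins, fell with MG132 in knockout cells by both of its probe sets. The first, 1425930_a_at, read 1767, 1640, 1828 and 1675 in untreated and 1361, 1334, 1317 and 1347 in treated knockout cells, without overlap. In wild-type cells it read 1053, 1326, 1625 and 1401 untreated and 1627, 1455, 1544 and 1574 treated, with overlap. The knockout response was -0.36 ± 0.09 (adjusted p = 0.00207), the wild-type response 0.21 ± 0.09 (adjusted p = 0.0525), and the difference between them -0.57 ± 0.13 (adjusted p = 0.00277).

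The second Mlx probe set, 1418437_a_at, read 1231, 1190, 1267 and 1216 in untreated and 960.9, 893.7, 926.4 and 1055 in treated knockout cells, a fall of the same size (-0.35 ± 0.07; adjusted p = 0.000384). In wild-type cells it read 922.2, 1072, 1147 and 1074 untreated and 930.5, 957.8, 946.9 and 880.5 treated. Its wild-type change was -0.18 ± 0.07 (adjusted p = 0.046), the opposite sign to that of the first probe set, and its difference between responses, -0.18 ± 0.10, did not pass (adjusted p = 0.236). The 2 probe sets therefore agree on the knockout fall and disagree in wild-type cells, where the small fall was called under only 8 of 26 other settings (adjusted p from 0.00596 to 0.466) and leaving out almost any array ended it. Both were higher in untreated knockout than in untreated wild-type cells, by 0.37 ± 0.09 (adjusted p = 0.00223) and 0.22 ± 0.07 (adjusted p = 0.0174), and in both the arrays did not overlap; the second call was lost without untreated wild-type replicate 1 (adjusted p = 0.0645).

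Among the antagonists, Mnt showed the largest response to MG132 and the largest interaction. MNT is the broadly expressed repressor that pairs with MAX in growing and resting cells alike. Its tested probe set 1418192_at read 1265, 1036, 1138 and 1160 in untreated and 1331, 1218, 1181 and 1294 in treated wild-type cells. In knockout cells it read 570.2, 794.8, 591.1 and 777.4 untreated and 1643, 2198, 1712 and 1860 with MG132. The untreated knockout arrays lay below, and the treated knockout arrays above, every wild-type array.

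Mnt rose 2.69-fold in knockout cells (1.43 ± 0.11 on the log2 scale; adjusted p = 1.15e-09), against a wild-type change of 0.13 ± 0.11 (adjusted p = 0.327). The difference between the responses was 1.30 ± 0.15 (adjusted p = 5.43e-06). Knockout minus wild-type was -0.75 ± 0.11 without treatment (adjusted p = 9.06e-06) and 0.55 ± 0.11 with MG132 (adjusted p = 0.000253). The second Mnt probe set, 1418193_at, averaged 19.43, 36.67, 15.74 and 35.26 in untreated and treated wild-type and untreated and treated knockout cells. It was at or under the array median on all 16 arrays and was not tested. Averaging it with 1418192_at on the log2 scale kept the knockout rise called, at 0.97, but the difference between the responses then no longer passed, at 0.66 (adjusted p = 0.179). Nor did the genotype differences then pass, at -0.42 untreated (adjusted p = 0.16) and 0.24 with MG132 (adjusted p = 0.415).

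Mxd4, a MAX-binding repressor of differentiating and resting cells, was lower in knockout than in wild-type cells at both treatments. Probe set 1434378_a_at read 1275, 1225, 1309 and 1410 in untreated wild-type against 733.4, 678.9, 743.1 and 910.9 in untreated knockout cells. With MG132 it read 997.8, 1006, 1021 and 1155 against 529.9, 643.8, 593.7 and 743.0. No wild-type array overlapped a knockout array of the same treatment. The differences were -0.76 ± 0.10 (adjusted p = 3e-06) and -0.73 ± 0.10 (adjusted p = 4.49e-06).

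The other Mxd4 probe sets varied in how far they shared this. Probe set 1434379_at averaged 495.9 ± 124.9 and 331.8 ± 69.2 in untreated and treated wild-type cells, against 302.9 ± 36.4 and 173.9 ± 21.73 in the knockout, and was lower in knockout, with differences of -0.66 ± 0.17 (adjusted p = 0.00279) and -0.86 ± 0.17 (adjusted p = 0.000229). Probe set 1422574_at, at 263.5 ± 32.18 and 346.7 ± 97.37 against 185.9 ± 40.31 and 161.9 ± 44.76, was lower with MG132 (-1.02 ± 0.20; adjusted p = 0.00025) but not called untreated (-0.48 ± 0.20; adjusted p = 0.0537). The weakest, 1422575_at, whose group means lay between 102.6 and 138.3 near the array median, passed in no comparison.

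With MG132, Mxd4 fell in both genotypes by 2 of its 4 probe sets. Probe set 1434378_a_at changed by -0.32 ± 0.10 in wild-type (adjusted p = 0.0108) and by -0.28 ± 0.10 in knockout cells (adjusted p = 0.0215), and 1434379_at by -0.55 ± 0.17 (adjusted p = 0.00842) and -0.75 ± 0.17 (adjusted p = 0.000791). The fall of 1434378_a_at was no longer called in either genotype after quantile normalisation or median centring of the arrays, nor in knockout cells without untreated replicate 4 or treated replicate 1 or 3. Neither interaction passed, at 0.03 ± 0.14 (adjusted p = 0.901) and -0.20 ± 0.24 (adjusted p = 0.595). The remaining 2 probe sets gave wild-type changes of the other sign, 0.34 ± 0.20 and 0.36 ± 0.22, which did not pass (adjusted p = 0.153 and 0.178).

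Mxd3, the family member found in proliferating cells around S phase, fell with MG132 in wild-type cells. Probe set 1448878_at read 863.3, 762.8, 767.1 and 887.8 untreated and 477.2, 330.8, 473.9 and 611.0 treated, without overlap. Knockout cells started lower, at 669.0, 535.3, 501.6 and 433.0, and read 375.4, 560.7, 561.5 and 514.9 with MG132. The wild-type fall was -0.80 ± 0.16 (adjusted p = 0.000258), the knockout change -0.09 ± 0.16 (adjusted p = 0.679) and the difference between responses 0.72 ± 0.23 (adjusted p = 0.0272).

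That Mxd3 difference was the least firm of the 3 called, since it was lost in 6 of 28 other settings, over which the adjusted p ran from 0.00828 to 0.145. These were the mean of the probe sets and the fits without replicate 4 of either untreated group, without treated wild-type replicate 2, or without treated knockout replicate 2 or 3. Probe set 1422970_at also fell in wild-type cells (-0.42 ± 0.17; adjusted p = 0.0387), from 376.8 ± 32.48 to 284.8 ± 75.25, with overlap between the arrays, a call lost under 9 of 27 other settings (untreated replicate 2, 3 or 4 or treated replicate 2 or 3 left out among them). The third, 1438847_at, went from 538.6 ± 130.4 to 467.7 ± 85.76, a change of -0.18 ± 0.19 that did not pass (adjusted p = 0.433). Neither showed a called difference between responses (0.27 ± 0.24 and 0.24 ± 0.27; adjusted p = 0.447 and 0.568). Untreated knockout cells were lower than untreated wild-type cells by 1448878_at (-0.62 ± 0.16; adjusted p = 0.00343) and 1422970_at (-0.49 ± 0.17; adjusted p = 0.0204), the latter not without untreated wild-type replicate 4 or untreated knockout replicate 3 or 4. By 1438847_at the difference was -0.46 ± 0.19 (adjusted p = 0.0556).

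Mxi1, also called MXD2, was the antagonist that was higher in knockout cells at both treatments. Probe set 1450376_at read 1309, 1308, 963.3 and 1158 in untreated wild-type against 1507, 1794, 1533 and 1640 in untreated knockout cells, and 1027, 1208, 1207 and 1055 against 1206, 1790, 1631 and 1734 with MG132. Probe set 1425732_a_at read 346.1, 363.2, 397.8 and 262.1 against 505.2, 505.6, 570.6 and 493.9 untreated, and 419.8, 430.9, 392.6 and 408.5 against 508.1, 547.8, 614.5 and 591.5 with MG132. In 3 of these 4 comparisons the arrays did not overlap, and in the other 1 treated knockout array fell within the wild-type range.

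The knockout excess of Mxi1 was 0.45 ± 0.11 and 0.59 ± 0.11 untreated (adjusted p = 0.0027 and 0.000176), and 0.48 ± 0.11 and 0.44 ± 0.11 with MG132 (adjusted p = 0.0014 and 0.00246). With MG132, probe set 1425732_a_at rose in wild-type cells by 0.27 ± 0.11 (adjusted p = 0.0408) with overlapping arrays, a call lost under 7 of 26 other settings (untreated replicate 1 or 4 or treated replicate 1, 2 or 4 left out among them), while 1450376_at changed by -0.07 ± 0.11 (adjusted p = 0.643).

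Mxd1, the first described MAX-binding antagonist and a marker of differentiation, passed in no comparison. Its higher-signal probe set, 1434830_at, read between 158.5 and 275.5 in wild-type and between 163.7 and 228.4 in knockout cells. Its log2 responses were -0.14 ± 0.17 in wild-type and -0.05 ± 0.17 in knockout cells (adjusted p = 0.499 and 0.815). Probe set 1455104_at read between 51.83 and 136.3 on the 16 arrays, close to the array medians, and 1422002_at averaged between 12.74 and 20.76 and was not tested.

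**Figure D3:**
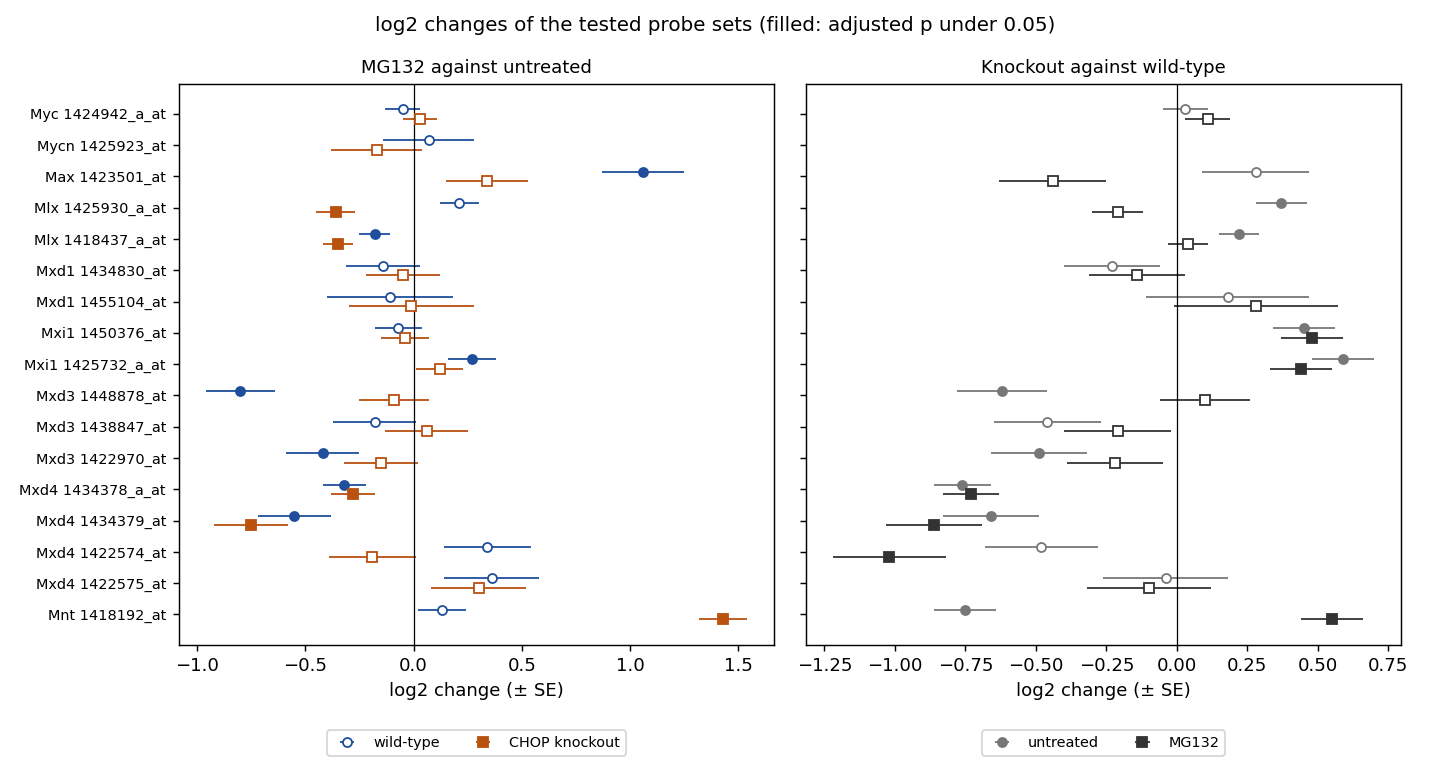
Fitted log2 change ± SE of each of the 17 tested probe sets, for MG132 against untreated in each genotype (left) and for knockout against wild-type at each treatment (right); filled symbols passed an adjusted p of 0.05. The knockout-against-wild-type changes of Mycn, -7.56 and -7.79, are off the scale and are not drawn; the Mnt response in knockout cells (1.43) and the Max response in wild-type cells (1.06) are the largest positive changes drawn.

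Seen by role, Mnt was the antagonist that rose with MG132 in knockout cells. Mxd4 fell in both genotypes and Mxd3 fell in wild-type cells, each by only some of its probe sets. Mlx fell by both probe sets in knockout cells. Between genotypes without treatment, Mnt was lower in knockout cells by its tested probe set, as were Mxd4 and Mxd3 by some of theirs, and Mxi1 was higher. Myc did not separate the groups. The comparisons of a genotype share its untreated arrays, so these values are set side by side and not counted as agreement.

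A pair of network genes outside the 9 was also measurable. Mga, a MAX partner with its own T-box domain, rose in both genotypes, by 0.44 ± 0.11 in wild-type (adjusted p = 0.00236) and by 0.29 in knockout cells. Mlxip, which encodes MondoA, the partner of MLX, fell from 1088 ± 189.5 to 552.0 ± 24.23 in wild-type cells (-0.94 ± 0.10; adjusted p = 9.17e-08). In knockout cells it went from 896.2 ± 66.68 to 726.7 ± 50.94 (-0.30), and the responses differed by 0.65 ± 0.14 (adjusted p = 0.00211). Mycl and Mlxipl did not pass the filter on low signals.

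The genes on which the network acts were described through lists drawn up with earlier results of these arrays known. Each gene was taken by its highest-signal probe set, and the same was done for all genes as a background. Of those 11451 genes, 26.7% were higher and 36.7% lower in the wild-type response (median log2 change -0.07), and 25.4% and 36.4% in the knockout response (median -0.07). Between genotypes, 28.2% were higher and 26.4% lower in untreated knockout cells (median 0.01), and 30.3% and 27.7% with MG132 (median 0.02). In the interaction 13.5% were called in each direction.

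Genes that MYC is known to activate moved both ways with MG132. Of 54 tested, 24 rose and 13 fell in wild-type cells (median 0.12), and 25 rose and 14 fell in knockout cells (median 0.13). Those that rose included Nop58, a protein of small nucleolar ribonucleoproteins (6453 ± 489.1 to 12390 ± 842.7 in wild-type cells; 0.94 ± 0.07; adjusted p = 2.59e-10), and Slc3a2, a subunit of amino acid transporters (1.13 ± 0.04; adjusted p = 9.75e-15). Those that fell included Tfrc, the transferrin receptor (10400 ± 647.1 to 2265 ± 101.3; -2.19 ± 0.06; adjusted p = 2e-16), and Ccnd2, cyclin D2 (-0.93 ± 0.05; adjusted p = 2.54e-11). Slc3a2 is also a known target of the stress factor ATF4.

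The responses of this list differed between genotypes for 13 of the 54 genes, 7 higher and 6 lower in knockout (median -0.04). Ccnd2 fell less in knockout cells, to 6867 from 9070 (interaction 0.53 ± 0.08; adjusted p = 6.38e-05). Prmt3, an arginine methyltransferase of ribosomal protein, rose from 4015 to 5281 in wild-type cells and was at 4188 and 4130 in knockout cells (-0.41 ± 0.06; adjusted p = 7.4e-05). Gnl3, the nucleolar GTPase nucleostemin, went from 11080 to 10300 in wild-type and from 11470 to 13980 in knockout cells (0.39 ± 0.06; adjusted p = 0.000171). Paics, of purine synthesis, went from 21280 to 17410 in wild-type and was at 20650 and 21360 in knockout cells (0.34 ± 0.06; adjusted p = 0.000191).

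Without treatment, 31 of the 54 MYC-activated genes were higher in knockout than in wild-type cells and 5 were lower (57.4% and 9.26%; median 0.18). With MG132 these were 28 and 7 (51.9% and 13.0%; median 0.16). The higher genes included the ribosome assembly factors Rrp9 (0.85 untreated), Nolc1 (0.65), Nop2 (0.58) and Rrp12 (0.56). Wild-type cells, which had the high Mycn 1425923_at signal, were thus the genotype with the lower level of most of the called genes, and what relates these measurements was not tested. An E-box stood in the window of 16 of 51 of the listed genes that had one (31.4%).

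Genes that MYC is known to repress held some of the largest responses. Of 18 tested, 9 rose and 7 fell in wild-type cells (median 0.24), and 6 rose and 8 fell in knockout cells (median -0.14). Gadd45a, a growth-arrest gene that stress induces by several routes, went from 569.2 ± 74.74 to 8175 ± 484.3 in wild-type cells (3.81 ± 0.07; adjusted p = 1.5e-18), and Ndrg1 rose by 1.78 ± 0.06 (adjusted p = 1.57e-14). Ccnd1, cyclin D1, fell from 13500 ± 372.6 to 2813 ± 198.1 (-2.26 ± 0.06; adjusted p = 1.51e-16), and Thbs1, thrombospondin 1, also fell (-1.05 ± 0.06; adjusted p = 5.92e-12).

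Between genotypes, 9 of the 18 MYC-repressed genes were higher and 5 lower in untreated knockout cells (median 0.17), and 6 and 7 with MG132 (median -0.04, but 0.02 with median centring). Their responses differed for 9 genes, 3 higher and 6 lower in knockout (median -0.23). Cdkn2b, the CDK inhibitor p15, was at 2370 and 2375 in wild-type cells but went from 4790 to 2404 in knockout cells (interaction -0.99 ± 0.09; adjusted p = 2.91e-07). Gas1, a growth-arrest gene, fell further in knockout cells, from 12180 to 1685 against 19660 to 7085 (-1.37 ± 0.19; adjusted p = 3.27e-05), as did Thbs1 (-0.61 ± 0.08; adjusted p = 1.82e-05). Gadd45b, a relative of Gadd45a, rose more in knockout cells, from 4836 to 10230 against 3012 to 4807 (0.40 ± 0.08; adjusted p = 0.00134).

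The cofactors of MYC were mostly higher in knockout cells. Of 12 tested, 9 were higher and 1 lower untreated (median 0.24), and 8 and 0 with MG132 (median 0.33). They included Trrap, the scaffold of acetyltransferase complexes (0.47 untreated), and Zbtb17, the MYC partner MIZ1 (0.31 untreated and 0.72 with MG132). With MG132, 3 rose and 4 fell in wild-type cells (median -0.11), and 5 rose and 3 fell in knockout cells (median 0.10). Ccnt1, cyclin T1 of the elongation factor P-TEFb, rose from 1501 ± 133.6 to 2659 ± 103.0 in wild-type cells (0.82 ± 0.07; adjusted p = 3.44e-09), and Kat2a, the acetyltransferase GCN5, fell (-0.87 ± 0.09; adjusted p = 3.58e-08). Wdr5, which helps recruit MYC to chromatin, fell in wild-type cells from 3610 to 2809 and was at 3979 and 4329 in knockout cells (interaction 0.48 ± 0.07; adjusted p = 9.75e-05). Ruvbl2, an ATPase of chromatin complexes, rose in wild-type cells (0.52 ± 0.05; adjusted p = 7.74e-09). Further interactions were called for Kat5, the acetyltransferase TIP60 (0.26 ± 0.08; adjusted p = 0.0186), Ccnt1 (-0.29 ± 0.10; adjusted p = 0.0327) and Zbtb17 (0.41 ± 0.14; adjusted p = 0.0415).

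The corepressors through which MXD proteins and MNT act also split. Of 9 tested, 5 rose and 3 fell in wild-type cells (median 0.14, but -0.03 after quantile normalisation), and 4 rose and 2 fell in knockout cells (median 0.17, but 0.03 after quantile normalisation). Sap30, a subunit of the SIN3 complex, rose from 4301 ± 151.7 to 7965 ± 250.8 in wild-type cells (0.89 ± 0.05; adjusted p = 8e-12). The histone-binding subunit Rbbp4 rose slightly (0.26 ± 0.04; adjusted p = 4.58e-06), and Suds3, another SIN3 subunit, fell from 3832 to 2807 in wild-type cells against 3372 to 3108 in knockout cells (interaction 0.33 ± 0.09; adjusted p = 0.0109). The paralogous scaffolds Sin3a and Sin3b diverged. Sin3b rose in wild-type cells from 6753 to 9048 and was at 9835 and 10370 in knockout cells (interaction -0.34 ± 0.05; adjusted p = 0.000102), whereas Sin3a went from 1391 to 1110 in wild-type and from 1640 to 1841 in knockout cells (interaction 0.49 ± 0.10; adjusted p = 0.00179). Between genotypes, 3 of the 9 were higher and 2 lower untreated, and 3 and 1 with MG132.

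Genes that govern the stability of MYC proteins moved in both directions. Of 15 tested, 5 rose and 6 fell in wild-type cells (median -0.04), and 6 rose and 4 fell in knockout cells (median 0.13). With median centring these became 5 and 3 (median 0.06) and 9 and 3 (median 0.25). Skp2, a ubiquitin ligase subunit for MYC, fell from 4939 ± 122.5 to 3429 ± 95.96 in wild-type and from 7781 to 4432 in knockout cells, with a larger fall in knockout cells (interaction -0.29 ± 0.06; adjusted p = 0.00235). Fbxw7, the ligase subunit that recognises phosphorylated MYC, fell in both genotypes (-0.30 and -0.29). Plk1, a mitotic kinase that can stabilise MYCN, fell from 4984 ± 271.1 to 2183 ± 256.6 in wild-type cells (-1.19 ± 0.07; adjusted p = 3.23e-11) and less in knockout cells (interaction 0.63 ± 0.10; adjusted p = 0.000147). Axin1, a scaffold that promotes MYC degradation, fell by 0.23 in wild-type and rose by 0.45 in knockout cells (interaction 0.68 ± 0.11; adjusted p = 0.00022). In wild-type cells the ubiquitin ligase Huwe1 (0.36 ± 0.07; adjusted p = 7.91e-05) and the deubiquitinase Usp28 (0.46 ± 0.09; adjusted p = 0.000157) rose. Stub1, the ligase CHIP, was at 10840 and 10740 in wild-type and went from 11110 to 9181 in knockout cells (interaction -0.26 ± 0.06; adjusted p = 0.00424). Between genotypes, 3 of the 15 were higher and 4 lower untreated, and 7 and 2 with MG132.

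**Figure D4:**
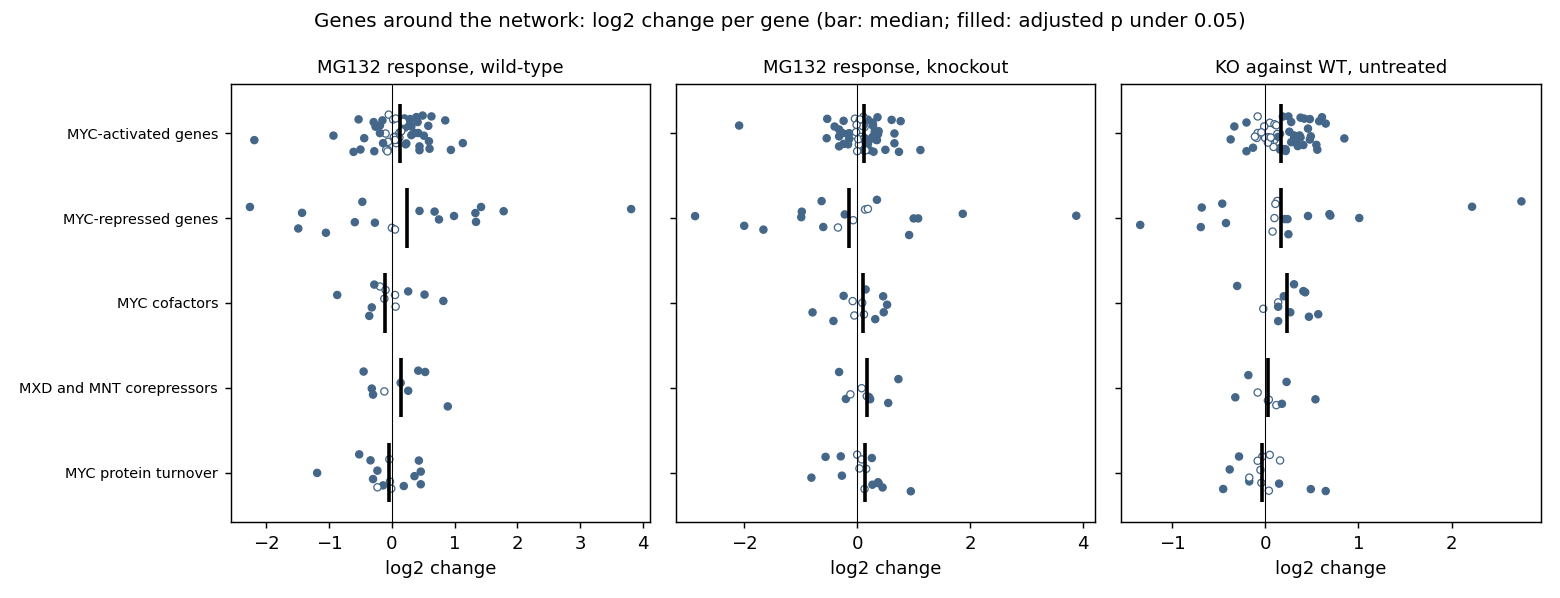
Fitted log2 change of each tested gene of 5 lists around the network, for the MG132 response in wild-type (left) and knockout cells (centre) and for knockout against wild-type without treatment (right); points are genes, filled where the adjusted p was below 0.05, and bars are list medians. The MYC-activated list is centred at 0.12, 0.13 and 0.18, while the MYC-repressed list has the widest spread.

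The scale of the arrays bears on these responses. Centring each array on its median moved the median change of all tested probe sets from -0.02 to 0.08 in wild-type and from -0.06 to 0.07 in knockout cells. It took the share of calls that were higher from 46.37% to 56.59% and from 42.7% to 56.24%. The MYC-activated list then had 33 higher and 8 lower in wild-type cells (median 0.22) and 34 and 7 in knockout cells (median 0.25). Quantile normalisation moved the list the other way, to 23 higher and 14 lower (median 0.06) and to 22 and 15 (median 0.06). The calls for Mnt, for Max in wild-type cells and for the Mlx falls in knockout cells held under that setting.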

How the data were processed

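RNA of 16 culture plates was labelled by a 3' in vitro transcription kit and hybridised to Affymetrix mouse arrays, per the labels. The deposited values are linear signal intensities that the authors made with MAS5, per the submitters' processing notes; its version was not given in the sources used here. Each array had been scaled to a mean of 1000 after trimming, as found from the values. Of 45101 probe sets, 34945 named 1 gene in the probe table, 932 several and 9160 none, with 64 controls; 34741 matched RefSeq by gene identifier. No detection calls were used, and the number of arrays limits the precision.

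Linear models (limma 3.58.1, R 4.3.3) were fitted to log2(signal + 16) for the 21651 probe sets (11457 genes) above the array median on at least 4 arrays, with a mean for each group (16 arrays, 12 residual degrees of freedom), a mean-variance trend and two-sided tests with Benjamini-Hochberg adjustment over all probe sets within each of 5 contrasts. Changes are log2 ± SE on that scale, which understates changes of weak signals; signals are mean ± SD of 4 arrays. The script was tested on simulated data. Genes of lists were named by the smallest adjusted p in the wild-type response and interaction, up to 4 each; others named were chosen after their values were seen. The members and lists were chosen with earlier results of these data known. Motifs were matched as exact letters.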

Additional observations from a re-analysis of the deposited data

Results flagged for a closer look

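The responses of the genotypes to MG132 differed by the interaction test for 3 probe sets: Mnt 1418192_at (1.30), Mlx 1425930_a_at (-0.57) and Mxd3 1448878_at (0.72), each as knockout minus wild-type on the log2 scale. For Mlx and Mxd3 the other probe sets of the gene gave differences that did not pass (-0.18 for Mlx, 0.27 and 0.24 for Mxd3).

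A single array stood apart from the other 3 of its group, by Dixon's criterion (the share of the group's range taken by the gap), in 7 of 68 groups of 4; chance gives about 1 in 20. Of these, 2 concern Myc, at 5479 in wild-type MG132 replicate 3 (share 0.851) and at 4993 in knockout MG132 replicate 1 (0.86). Mycn 1425923_at stood at 36520 in wild-type MG132 replicate 3 (0.84). Mxd4 1434378_a_at stood at 1155 in wild-type MG132 replicate 4 (0.852), and Mxd4 1422575_at at 155.8 in untreated wild-type replicate 2 (0.919). Mxi1 1425732_a_at stood at 570.6 in untreated knockout replicate 3 (0.847), and Mxd1 1455104_at at 53.71 in knockout MG132 replicate 2 (0.892).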

How the results depend on the processing

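No called change reversed under any alternative. The counts of called member probe sets, Mycn included, moved as follows. Each genotype count below holds the Mycn call, which was known when the genes were chosen. Averaging the probe sets of a gene also added a Mycn call in the knockout response. Settings that merge or drop probe sets leave fewer to be called, and for the others the cause was not tested. The shares of all probe sets called under these settings are not given, so the counts show nothing particular to the members. In the wild-type response the count of 7 became 4 with no filter, 4 with 1 probe set per gene, 2 with the mean of all probe sets of a gene, 4 without suffixed probe sets and 4 when only the groups compared were fitted. In the knockout response 5 became 3, 3 and 2 with 1 probe set per gene, the mean and no suffixed probe sets, and the 3 interactions became 1 with the mean. Knockout against wild-type went from 10 to 6, 5 and 6 untreated with those 3 settings, and from 7 to 3 with the mean when treated. Leaving out 1 array gave 4 to 8, 4 to 6, 2 to 4, 9 to 12 and 7 to 9 calls; the 4 of the wild-type response came without untreated wild-type replicate 4. The Max interaction passed in 9 of 28 settings. Deviations of same-numbered arrays of different groups from their group means correlated at a median of 0.034 (24 pairs). For differently numbered arrays the median was -0.013 (72 pairs). These values do not settle whether the numbers pair the plates. With the replicate block the counts were 6, 5, 4, 11 and 8. Signals of Mxd1 1455104_at and Mxd4 1422575_at lay close to the array median.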
